A study of Saccharomyces cerevisiae with 6 samples.

Results

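Ribosomal proteins are the protein part of the cytosolic ribosome, the machine that translates nuclear mRNAs. In budding yeast (Saccharomyces cerevisiae) they assemble with ribosomal RNA into a large and a small subunit, and most are encoded by a pair of near-identical genes called A and B, left from an ancient duplication of the genome. Their genes are among the most strongly transcribed in growing cells, rise and fall together with growth through the factors Rap1, Fhl1, Ifh1 and Sfp1, and are known to be repressed in many stresses. The genes described here are those with a standard name of RPL or RPS plus a number, or RPP0, RPP1A, RPP1B, RPP2A or RPP2B. This rule gave 137 genes of the 6205 reading frames on the array. Of these, 81 belong to the large subunit, counting the acidic stalk genes (RPP), and 56 to the small subunit. The names form 59 A and B pairs and leave 19 genes with no paralogue. Values were present in all 6 conditions for 136 members, and RPS21A lacked a value in WT at 3 h.

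Transcript levels were measured on 2-colour arrays as the ratio of treated over control cells of the same strain, all grown in YEPD, a rich glucose medium. Wild-type (WT) cells, strain UCC1899, had been kept for 6 h with the DNA-binding dye ethidium bromide at 30 µg/ml, which removed the mitochondrial genome (mtDNA), and were set against WT cells with intact mtDNA at 3, 11, 19 and 27 h after the loss. Strain UCC3980, homozygous for ATP1-111, was treated in the same way and measured at 27 h against its own control with mtDNA. ATP1 encodes a catalytic-core subunit of mitochondrial ATP synthase, and the ATP1-111 allele is known to improve growth without mtDNA. In strain UCC3970 the essential gene NAR1, which acts in cytosolic iron-sulfur cluster assembly, was repressed for 27 h by moving cells from 50 to 2 nM estradiol, and the control stayed at 50 nM. Whether the control cultures of the mtDNA experiments met the dye is not given in the sources used here, and effects of less estradiol cannot be told apart from those of less NAR1. As a check of the labels, the NAR1 ratio was 0.031 in the NAR1 experiment and between 0.979 and 2.25 in the other 5 conditions. It is also not given in the sources used here whether a common control served all WT time points.

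Each condition came as 1 ratio per gene, the authors' average over 6 dye-swapped arrays with 3 biological replicates in each dye orientation (5 arrays, 3 and 2, for ATP1-111), so single values carry no replicate error. The precision is limited by the number of arrays. The SD of 1 spot, taken from 13 genes that have 2, was 0.151 to 0.239 on the log2 scale, and the SD of a difference between 2 spots 0.214 to 0.337. Each of the 137 ribosomal protein genes had 1 spot. Standard errors (SE) and adjusted p-values come from a limma fit to all 6151 complete genes, in which the spread is the scatter of the 4 WT time points about a straight line, and the ATP1-111 and NAR1 values are assumed to vary alike. A change is called where the p-value, adjusted by Benjamini-Hochberg over all genes, is under 0.05. The median log2 ratio over all genes lay between -0.06 and 0.03 in the 6 conditions.

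The first question was how these genes moved over the hours after mtDNA loss in WT cells. At 3 h they were slightly above their control, with a median ratio of 1.11 and 12 of 136 genes below 1, where 50.7% of all genes were below 1. At 11 h the median ratio was 0.732, with 134 of 137 genes below 1 (51.7% of all genes). It was 0.631 at 19 h, then 0.646 at 27 h, with 136 of 137 genes below 1 at each time, where 54.3% and 55.6% of all genes were below 1. The course was therefore a step down between 3 and 11 h (median change -0.60, with 132 of 136 genes lower at 11 h), a further shift by 19 h and a level close to it at 27 h. From 19 to 27 h the median change was 0.03, with 73 of 136 genes higher. A ratio above 1 at 3 h and below 1 at every later time was found in 123 of 136 ribosomal protein genes (90.4%) and in 12.8% of all genes.

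**Figure D1:**
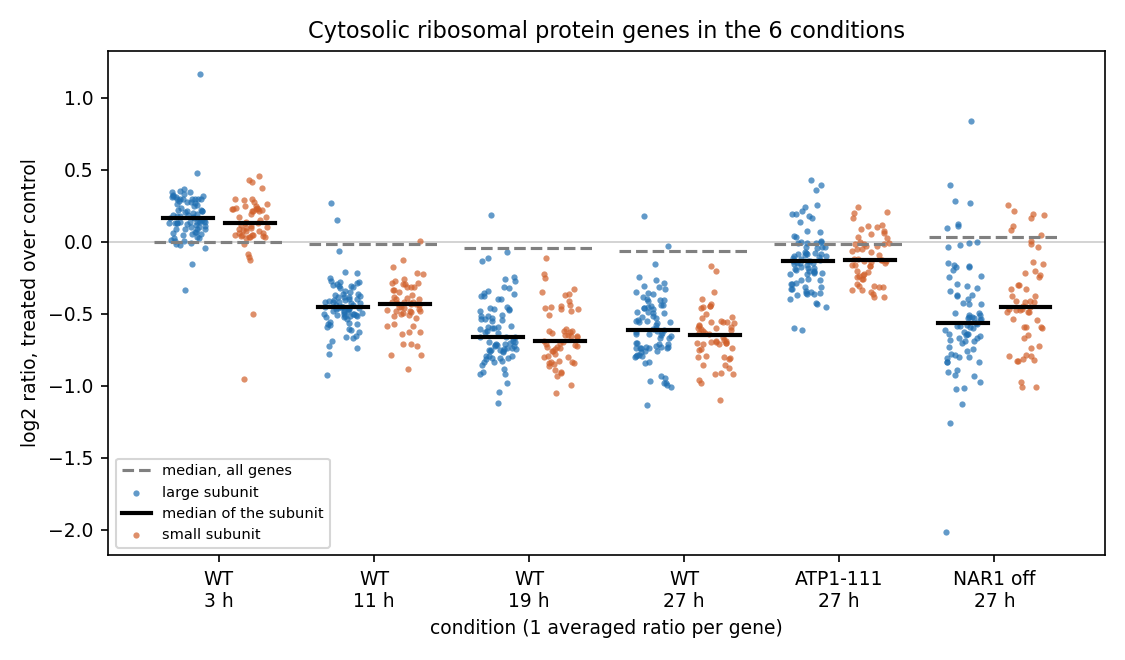
Log2 ratio of treated over control (vertical axis) for each ribosomal protein gene in the 6 conditions (horizontal axis), 1 point per gene, with the large subunit in blue and the small subunit in orange. Black bars are subunit medians and dashed grey lines the median of all genes; both subunits lie above the grey line at 3 h and below it in the other 5 conditions, and the widest scatter is under NAR1 repression.

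By size, 80 of 137 members were lower by 1.5-fold or more at 27 h and 0 higher by as much, against 10.4% and 11.1% of all genes. The counts were 90 lower and 0 higher at 19 h (8.31% and 8.65% of all genes), and 22 lower and 0 higher at 11 h (3.88% and 4.43% of all genes). At 3 h RPL3 alone was that much higher and RPS26A alone that much lower (2.24% and 2.74% of all genes). The fitted WT level at 27 h was called lower for 118 of 136 members (86.8%), against 22.5% of all genes, and higher for 0 in limma (0 also at an unadjusted p under 0.05), against 18.0% of all genes. The median of these 118 estimates was -0.82 on the log2 scale. Over all 136 members the fitted median was -0.79, below the observed median of -0.63 at 27 h. The straight line thus passed below the last values of a course that levelled off. The count called lower was 51 without the 19 h column (10.7% of all genes) and 18 with columns scaled to equal spread (6.94% of all genes). It was 0 by ordinary least squares (46 at an unadjusted p under 0.05), which called 0 of all 6151 genes.

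The WT slope was called downward for only 6 of 136 members (4.41%, against 2.62% of all genes) and upward for 0 in limma (1 at an unadjusted p under 0.05, and 4.63% of all genes called), although 133 estimates were below 0. At limma's unadjusted p under 0.05, 102 of 136 members and 998 of 6151 genes were downward. The 6 genes called were RPL21B, RPS10A, RPS23B, RPS26B, RPS6A and RPS6B. None of the members passed without the 3, 19 or 27 h column, where 0.358%, 0% and 0.276% of all genes were called lower. Without the 11 h column 11 passed (1.56% of all genes). With time as log2 hours, a scale that gives more weight to the early step, 70 passed (4.37% of all genes). Leaving out the 3 h column moved the median fitted change over 24 h from -0.78 to -0.27.

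The lowest member at 27 h was RPL21B, a large subunit gene, with ratios of 1.11, 0.695, 0.571 and 0.456 at 3, 11, 19 and 27 h. Its ratio was lower at each successive time, and its fitted log2 change over 24 h was -1.24 (SE 0.18, limma adjusted p = 0.0288). RPS28B, a small subunit gene whose mRNA is known to be destabilised by its own protein, went from 1.33 through 0.581 and 0.535 to 0.468. The stalk gene RPP2A went from 1.23 to 0.605, 0.534 and 0.497, and RPL9A from 1.01 to 0.527, 0.506 and 0.503. RPS10A, which encodes a protein of the small subunit's head, had ratios of 1.03, 0.731, 0.602 and 0.506 (change -1.01, SE 0.16, adjusted p = 0.0317). RPL21B and RPS10A thus declined through the whole course, while RPL9A stood at its late level from 11 h on.

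RPS6A and RPS6B encode the small subunit protein that is phosphorylated in growing cells. RPS6A had ratios of 1.08, 0.834, 0.584 and 0.574 (change -0.98, SE 0.19, adjusted p = 0.047), and RPS6B ratios of 1.16, 0.862, 0.729 and 0.599 (change -0.93, SE 0.15, adjusted p = 0.0318). In all, 43 of 136 members were lower at each of the 3 successive steps, as were 934 of 6157 genes in all. The lowest of the 4 values was that at 19 h for 71 members (52.2%, against 22.1% of all genes) and that at 27 h for 59 (43.4%, against 31.8% of all genes).

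Some members left this common course. RPL3, which reaches toward the site of peptide bond formation, had a ratio of 2.25 at 3 h, the highest of all members, and then 0.768, 0.843 and 0.714. The next highest member at 3 h was RPL29, at 1.39. RPS26A ran against most members and had the highest slope estimate of the 3 above 0. Its ratios were 0.517, 0.543, 0.716 and 0.87, the lowest of all members at 3 h and among the 5 highest at 27 h, with a fitted change of 0.80 (SE 0.16) that did not pass (adjusted p = 0.0507). RPL22B stayed near or above its control with ratios of 1.09, 1.21, 0.954 and 1.13, and it was the only member above 1 at 27 h.

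RPS16A (0.706, 0.917, 0.618 and 0.892), RPL16B (0.794, 1.11, 0.8 and 0.712) and RPL7A (0.898, 0.715, 1.14 and 0.803) moved up and down between time points. Of the 18 members whose fitted level at 27 h was not called lower, 15 belong to the large subunit, among them RPL4A, RPL4B, RPL7A, RPL7B, RPL15A and RPL15B. The remaining 3 were RPS16A, RPS26A and RPS31.

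**Figure D2:**
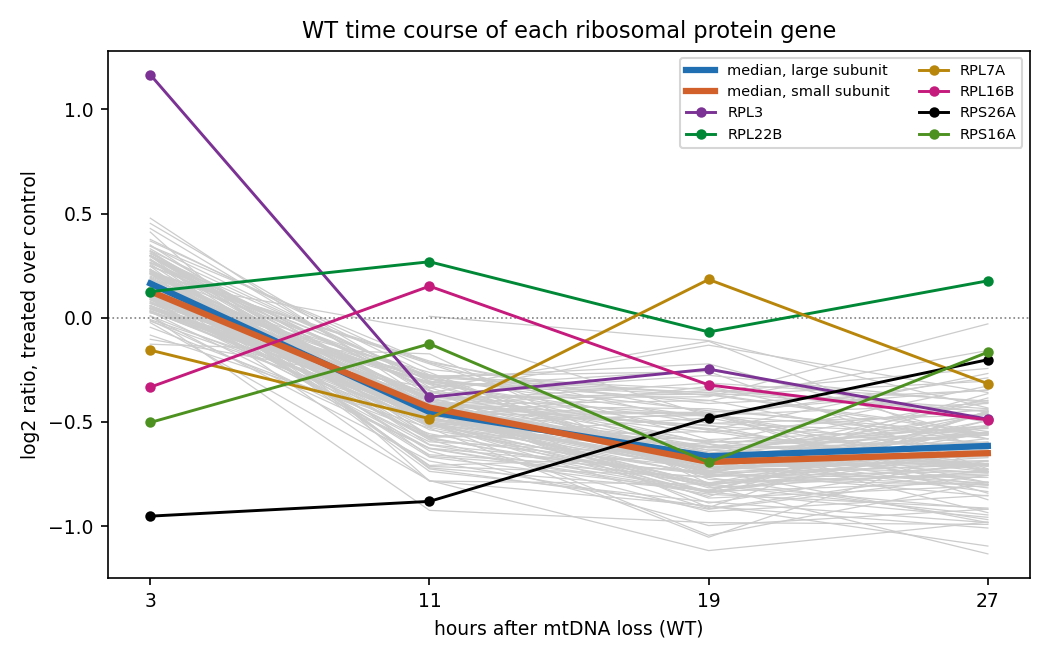
Log2 ratio of treated over control (vertical axis) against hours after mtDNA loss in WT cells (horizontal axis), with 1 grey line per ribosomal protein gene, thick lines for subunit medians and 6 named genes that leave the common course. Both medians drop between 3 and 11 h and stay near -0.6 to -0.7 from 19 h on; RPL3 starts at 1.17 and RPS26A at -0.95.

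The medians of large and small subunit genes were similar in WT cells. The median log2 ratios in WT, large subunit before small, were 0.16 against 0.13 at 3 h, -0.45 against -0.43 at 11 h, -0.66 against -0.69 at 19 h, and -0.61 against -0.65 for the last time point. Large minus small was therefore between -0.02 and 0.04 in the 4 WT columns. At 27 h the middle 50% of large subunit genes, between the quartiles, spanned -0.74 to -0.45 and that of small subunit genes -0.76 to -0.56. The fitted 27 h level was called lower for 66 of 81 large (81.5%) and 52 of 55 small subunit genes (94.5%). In ATP1-111 cells the medians were -0.14 and -0.12. Under NAR1 repression they were -0.56 and -0.45, the widest gap of the 6 conditions at -0.11. That gap turned to 0.38 among genes with no paralogue, where 11 large and 8 small subunit genes remained, so its direction depends on the genes compared. Among the same genes large minus small was 0.21 at 11 h and 0.19 at 19 h in WT cells.

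The next question was whether ATP1-111 changed this response. In ATP1-111 cells at 27 h the members lay just below their control, with a median ratio of 0.912, and 106 of 137 were below 1 (53.3% of all genes). Only RPL34A at 0.653 and RPL36B at 0.661 were at least 1.5-fold lower (1.39% of all genes), and 0 members that much higher (1.98% of all genes). Against no change 0 of 136 members were called in either direction in limma, with 3 lower and 0 higher at an unadjusted p under 0.05, against 0.065% of all genes called higher and 0.0488% lower. Ordinary least squares called 0 of all 6151 genes here, so its 0 for the members carries no information (1 member lower unadjusted).

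Compared directly, the ratio was higher in ATP1-111 than in WT cells at 27 h for 136 of 137 members (99.3%), against 54.3% of all genes. The exception was RPL22B, at 1.12 in ATP1-111 and 1.13 in WT. The SD of the log2 ratios over all genes was 0.27 in ATP1-111 and 0.63 in WT cells at 27 h. Genes in general thus lay nearer their control in ATP1-111 cells. Observed log2 medians of the members were -0.13 in ATP1-111 and -0.63 in WT cells at 27 h. The fitted WT level was lower still (median -0.79), which widens any difference from it. The difference from the fitted WT level had a median of 0.64 on the log2 scale over the members and of 0.04 over all genes. With columns scaled to equal spread these medians were 0.38 and 0.002, and 127 of 136 member estimates were above 0. In the unscaled fit the difference was called as follows. It was called higher for 7 of 136 members (5.15%, against 3.09% of all genes) and lower for 0 in limma (0 also at an unadjusted p under 0.05), against 4.62% of all genes called lower. At limma's unadjusted p under 0.05, 73 of 136 members and 942 of 6151 genes were higher. The share of single genes called after adjustment was thus near the background, while the unadjusted share was above it. The direction of the observed difference was shared by all members but RPL22B. No member passed without the 19 or 27 h column, with columns scaled to equal spread or by ordinary least squares. In these settings 0, 23, 5 and 0 of 6151 genes were called higher. Without the 3 h column 25 members passed (367 of 6151 genes), and without the 11 h column 2 (93 of 6151 genes).

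Among the members called higher in the main fit were RPS10A, RPS4A, RPL26A, RPL21B, RPL28 and RPS23B. RPS10A stood at 1.00 in ATP1-111 against 0.506 in WT (ATP1-111 minus fitted WT 1.03, SE 0.15, limma adjusted p = 0.0315). RPS4A stood at 1.16 against 0.615 (1.00, SE 0.17, adjusted p = 0.0383). RPL26A had 1.19 against 0.605 and RPL28 had 1.13 against 0.68. These 4 genes were at or above their control in ATP1-111 cells and well below it in WT cells. RPL21B (0.806 against 0.456) and RPS23B (0.905 against 0.568), which helps to monitor decoding, were below 1 in both strains.

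Members at the low end in WT cells were also rather low in ATP1-111 cells. Across the 137 genes Pearson's r between the log2 ratios was 0.42, and 0.47 across all genes, a description of points that share the array's spots. The highest ATP1-111 values were those of RPL16B (1.34), RPL41A (1.31) and the stalk gene RPP2B (1.29), which at 27 h in WT cells had 0.712, 0.64 and 0.78.

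**Figure D3:**
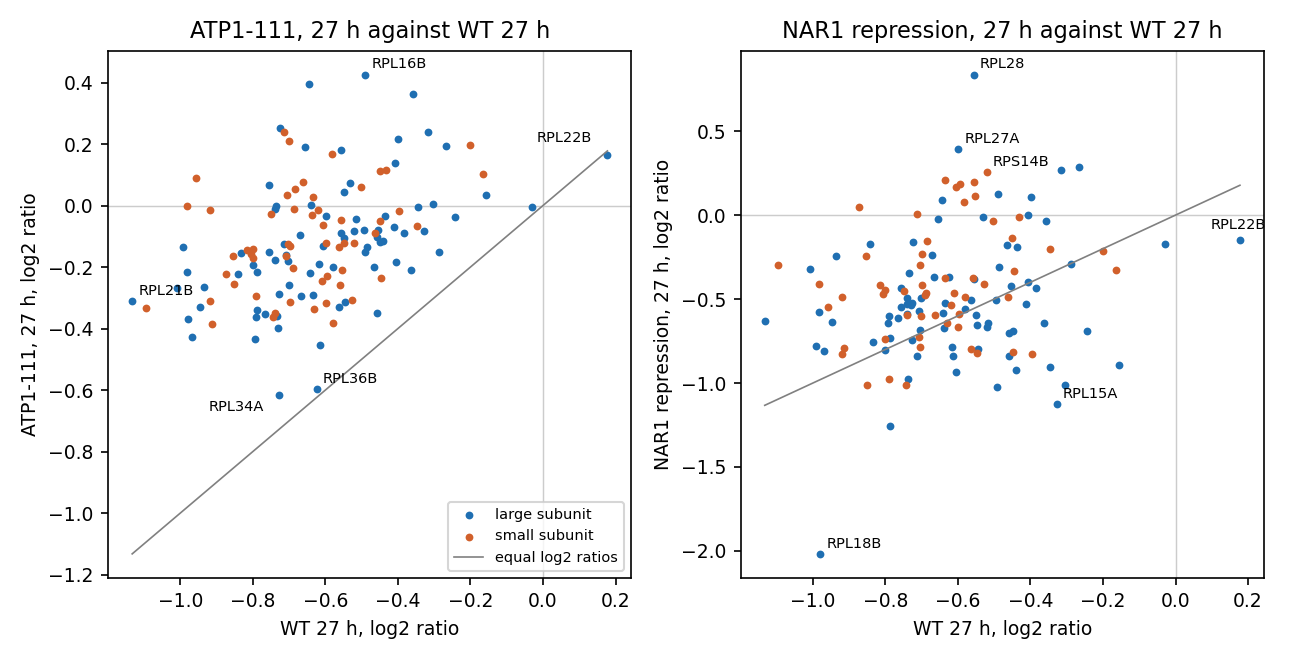
Log2 ratios of ribosomal protein genes in ATP1-111 cells (left) and after NAR1 repression (right), on the vertical axes, against WT cells 27 h after mtDNA loss on the horizontal axes, 1 point per gene, with the line of equal values. All points but RPL22B lie above the line on the left, while on the right 91 of 137 lie above it and RPL18B and RPL28 mark the ends of a wide range.

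The third question was what repression of NAR1 did to the same genes. The median ratio was 0.703, with 120 of 137 members below 1 (46.6% of all genes) and 55 at least 1.5-fold lower (10.0% of all genes). RPL28 alone was at least 1.5-fold higher (9.64% of all genes). In limma 37 of 136 members were called lower (27.2%, against 11.2% of all genes) and 1 higher (0.735%, against 13.3% of all genes). The members were more widely scattered than in the other conditions. The SD across members was 0.38 on the log2 scale, against 0.21 in WT cells at 27 h and 0.19 in ATP1-111 cells. Over all genes the SD was 0.55, 0.63 and 0.27 in the same order. Called lower were 24 of 81 large and 13 of 55 small subunit genes. The count of lower members moved to 76, 35, 10 and 64 without the 3, 11, 19 or 27 h column, to 69 with log2 hours and to 0 with columns scaled to equal spread or by ordinary least squares. Of all genes 15.1%, 8.55%, 6.68%, 13.1%, 12.5%, 1.89% and 0% were called lower in the same order.

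RPL18B was the lowest member. It had a ratio of 0.247 after NAR1 repression (log2 -2.02, SE 0.22, adjusted p = 0.00745), against 0.984, 0.582, 0.461 and 0.507 in WT cells over time and 0.775 in ATP1-111 cells. RPL15A and RPL15B also fell, to 0.458 and 0.495, where in WT cells at 27 h they had 0.797 and 0.81. Their fitted WT levels narrowly missed the call (limma adjusted p = 0.0607 and 0.0631). NAR1 repression minus the fitted WT level was not called for RPL18B, RPL15A or RPL15B (limma adjusted p = 0.0916, 0.199 and 0.14). RPL30, whose protein is known to bind its own transcript and block its splicing, fell to 0.492.

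RPL28, the gene in which the classical cycloheximide resistance mutations lie, was the only member called higher. Its ratio was 1.79 after NAR1 repression (log2 0.84, SE 0.12, adjusted p = 0.0124), against 1.13, 0.958, 0.722 and 0.68 in WT cells. RPL27A (1.31), RPL31B (1.22), RPL7A (1.21) and RPS14B (1.19) followed without passing. The call of RPL28 was lost with scaled columns and by ordinary least squares, which called no gene on the array. In all, 16 members were above 1, of which 9 belong to the small subunit.

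Set against the fitted WT level at 27 h, NAR1 repression gave higher values for 10 of 136 members (7.35%, against 13.9% of all genes) and lower values for 0 in limma (1 at an unadjusted p under 0.05), against 12.1% of all genes. Both shares are below the background. For the members as a set the fitted WT level lay below the observed one, so these differences lean upward. Observed log2 medians were -0.51 after NAR1 repression and -0.63 in WT cells at 27 h. The 10 genes were RPL28, RPL27A, RPS0B, RPS7B, RPS10A, RPS10B, RPS18A, RPS18B, RPS21B and RPS27A, 8 of them in the small subunit. Without the 3 h column 18 members were called higher and 5 lower (950 and 890 of 6151 genes). Without the 19 h column 1 was called higher (220 of 6151 genes). RPL28 had the largest difference (1.46, SE 0.16, adjusted p = 0.00597). RPS18A and RPS18B stood at 1.12 and 1.16 after NAR1 repression, against 0.657 and 0.643 in WT cells at 27 h. The order of members was only loosely shared between WT at 27 h and NAR1 repression. Pearson's r of the log2 ratios across the 137 genes was 0.22 between these conditions, and 0.19 across all genes, as a description of points that share the array's spots. Between ATP1-111 cells and NAR1 repression r was 0.44 across the 137 genes and 0.09 across all genes.

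The paralogues were compared as A minus B of the log2 ratios in each condition. Whether the spots tell near-identical paralogues apart is not given in the sources used here, so the value of each paralogue is uncertain, and a small difference does not show that the genes of a pair behaved alike. A pair is said to be apart where the difference is at least 0.5, which is above the SD of a difference between 2 spots in every condition. At 27 h that SD was 0.34 in WT cells, 0.32 in ATP1-111 cells and 0.34 under NAR1 repression. A difference near 0.5 is therefore within reach of spot error. The pair differences are a description, and no test of a pair was made. The A gene was not the lower one as a rule. A was lower in 32 of 58 pairs at 3 h, and in 34, 32 and 34 of 59 pairs at the later WT times, in 29 in ATP1-111 cells and in 33 after NAR1 repression, and the median of A minus B lay between -0.03 and 0.00.

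How close the pairs were, beside other genes of the same subunit, varied with the condition. The median absolute difference within a pair was 0.10 at 3 h, 0.07 at 11 h, 0.21 at 19 h and 0.14 at 27 h in WT cells, 0.13 in ATP1-111 cells and 0.19 after NAR1 repression. Between other genes of the same subunit it was 0.13, 0.14, 0.20, 0.20, 0.18 and 0.33 in the same order, so at 19 h pairs were no closer than other genes. Of the 59 pairs, 42 were apart in no condition, 11 in 1, 2 in 2 and 4 in 3 or more. The number apart was 3, 5, 4 and 4 over the WT time points, 4 in ATP1-111 cells and 11 after NAR1 repression. As shares these were 5.17%, 8.47%, 6.78%, 6.78%, 6.78% and 18.6% of the pairs, against 4.99%, 5.21%, 10.8%, 9.6%, 7.65% and 31.8% of other same-subunit gene pairs. Pairs were thus apart at least as often as other genes at 3 and 11 h, and less often in the other 4 conditions, with no test of these differences. Among the closest pairs were RPS23 and RPL1, each with a median absolute difference of 0.03 over the conditions. RPL1A and RPL1B, for example, had 0.733 and 0.697 at 27 h in WT cells and 0.619 and 0.63 after NAR1 repression.

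**Figure D4:**
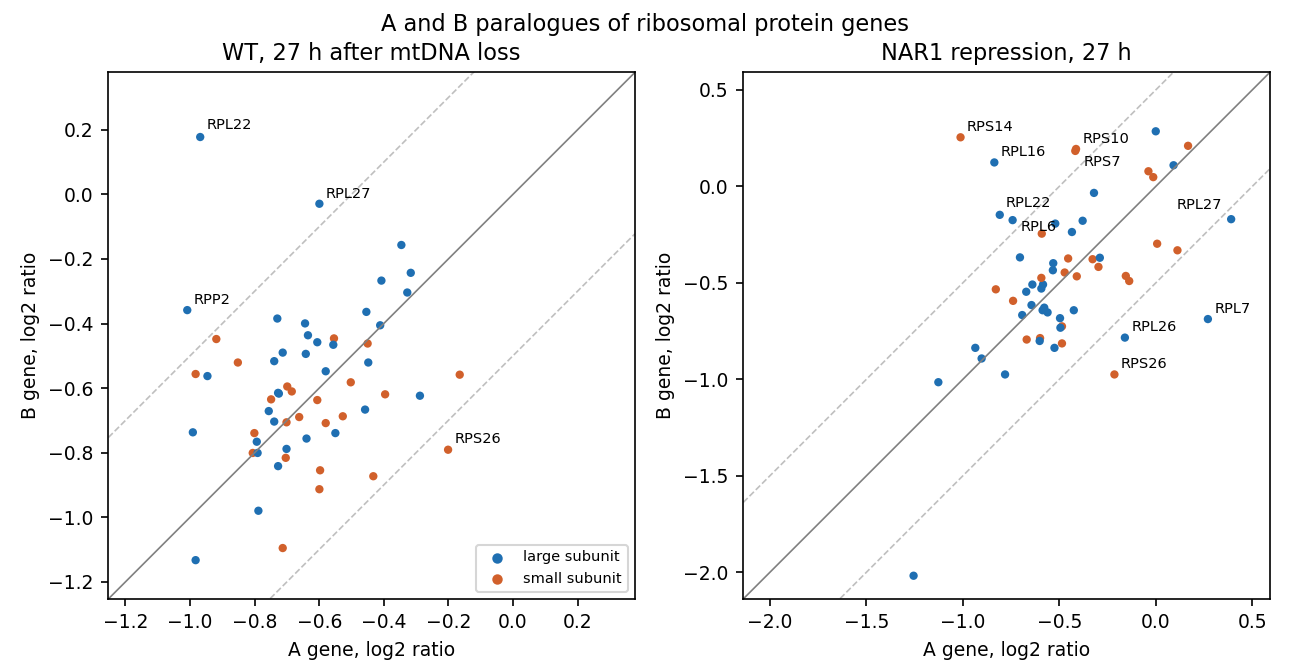
Log2 ratio of the B gene (vertical axis) against the A gene (horizontal axis) for each paralogue pair, in WT cells 27 h after mtDNA loss (left) and after NAR1 repression (right), coloured by subunit, with the line of equal values and dashed lines at a difference of 0.5. Outside the dashed lines lie 4 pairs on the left and 11 on the right, most of them named.

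RPL22 encodes a large subunit protein that yeast can do without. RPL22A had ratios of 1.21, 0.631, 0.588 and 0.511 in WT cells, 0.744 in ATP1-111 and 0.571 after NAR1 repression. RPL22B had 1.09, 1.21, 0.954, 1.13, 1.12 and 0.903 in the same order. A minus B was -1.15 at 27 h, the widest difference of any pair at that time, and the pair was apart, with A below B, in every condition but WT at 3 h.

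RPP2, RPL16 and RPS26 were also apart in 3 or more conditions. RPP2A and RPP2B encode acidic proteins of the stalk, which recruits the translation GTPases. RPP2A had ratios of 1.23, 0.605, 0.534 and 0.497 in WT cells, 0.83 in ATP1-111 and 0.801 after NAR1 repression, and RPP2B had 1.02, 0.779, 0.913, 0.78, 1.29 and 0.977. RPP2A was lower from 11 h on and in the other strains. RPL16A had 1.14, 0.773, 0.689, 0.61, 0.917 and 0.56, where RPL16B had 0.794, 1.11, 0.8, 0.712, 1.34 and 1.09, so A was the higher gene at 3 h alone. RPS26A crossed RPS26B. RPS26B had 1.35, 0.773, 0.658 and 0.578 in WT cells, a fall that passed the slope test (change -1.17, SE 0.24, adjusted p = 0.0497), and RPS26A minus RPS26B was -1.38 at 3 h but 0.59 by 27 h. In ATP1-111 cells RPS26A stood at 1.15 and RPS26B at 0.816, and after NAR1 repression at 0.862 and 0.509.

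Among the pairs apart under NAR1 repression and in no other condition were RPL6, RPL26, RPS7, RPS10 and RPS14. RPS14A had a ratio of 0.496 and RPS14B 1.19, a difference of -1.27 and the widest in that condition, while at 27 h in WT cells they had 0.554 and 0.697. RPS14B is known to be held down by its own protein. RPL7A was at 1.21 and RPL7B at 0.621, a pair also apart at 19 h in WT cells. RPL27A was at 1.31 with RPL27B at 0.889, the reverse of their order at 27 h in WT cells, where they had 0.66 and 0.98. In limma both genes of a pair were called lower under NAR1 repression for 6 pairs, among them RPL4, RPL15, RPL42, RPS4 and RPS6, and 1 gene of the pair for 17 of 58 pairs. For the fitted WT level at 27 h both genes were called in 45 pairs and 1 gene in 10, and 17 of the 19 genes with no paralogue were called.

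**Figure D5:**
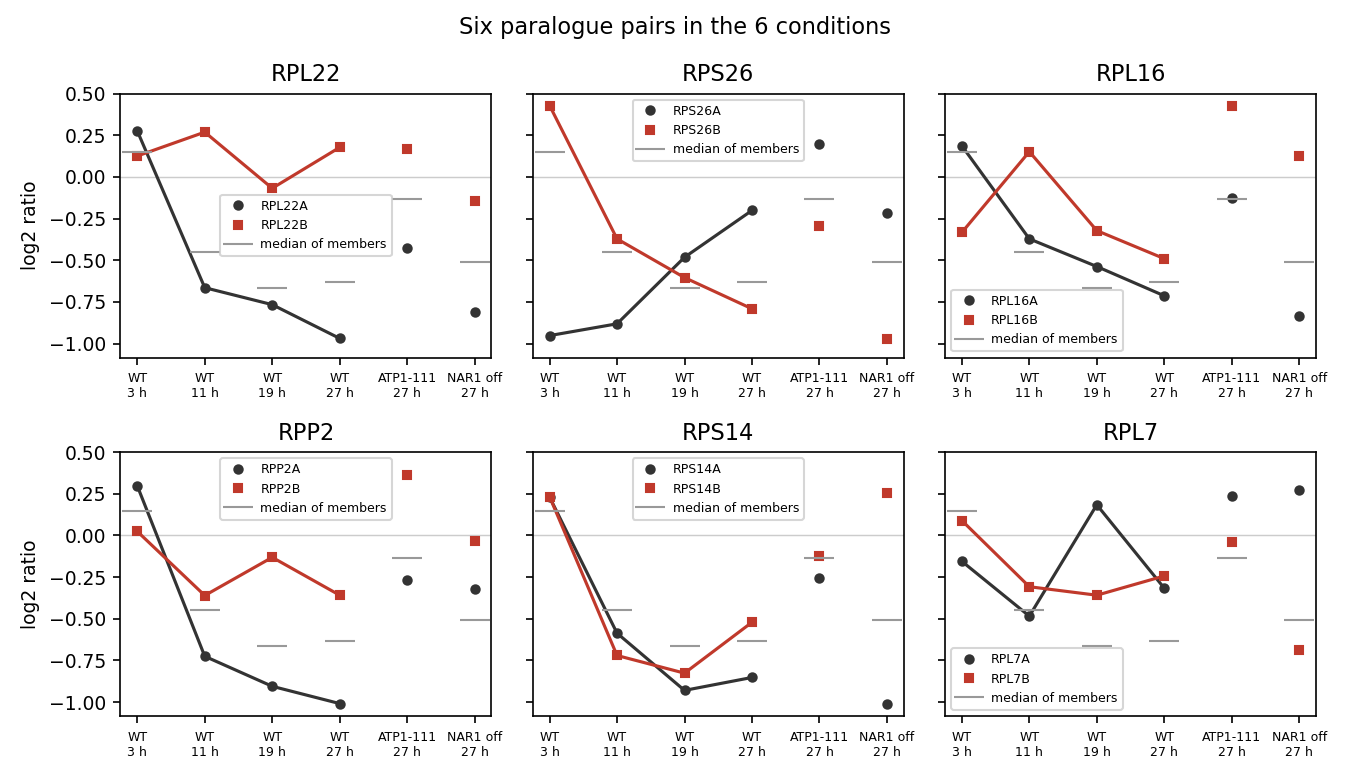
Log2 ratio (vertical axis) of the A gene (black circles) and the B gene (red squares) of 6 paralogue pairs in the 6 conditions (horizontal axis), with WT time points joined by lines and grey bars for the median of all ribosomal protein genes. RPL22B stays near 0 where RPL22A falls, RPS26A and RPS26B cross, and RPS14 separates after NAR1 repression alone.

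Within the stalk, RPP0, the protein that anchors the acidic pairs, had ratios of 1.24, 0.758, 0.683 and 0.737 in WT cells, 0.924 in ATP1-111 and 0.528 after NAR1 repression, where it fell (log2 -0.92, SE 0.21, adjusted p = 0.0327). RPP1A (0.752 at 27 h in WT and 0.692 after NAR1 repression) and RPP1B (0.755 and 0.759) stayed close to each other. At 27 h in WT cells the 5 stalk genes were called lower with the exception of RPP2B (adjusted p = 0.0801).

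RPL40A, RPL40B and RPS31 encode ubiquitin fused to a ribosomal protein and so supply both. RPL40A had ratios of 1.01, 0.699, 0.606 and 0.642 in WT cells, 1.00 in ATP1-111 and 0.628 after NAR1 repression, where it fell (adjusted p = 0.0418). RPL40B had 1.23, 0.701, 0.578, 0.592, 1.05 and 0.685, and RPS31 had 1.30, 0.827, 0.752, 0.786, 0.954 and 0.868. RPL40A and RPL40B were thus lower than RPS31 from 11 h on in WT cells and after NAR1 repression.

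In the reference gene order (R64) 10 pairs of members lie next to each other, 5 of them divergent, 3 tandem and 2 convergent by their systematic names. The convergent neighbours RPS14B and RPS22A differed by 0.74 on the log2 scale under NAR1 repression, at log2 ratios of 0.25 and -0.49, and by 0.40 at 27 h in WT cells. The median absolute difference between the 10 neighbours was 0.16, 0.17, 0.16 and 0.24 over the WT time points, 0.12 in ATP1-111 cells and 0.38 after NAR1 repression.

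Other genes of translation were taken from lists of known function, and the values named for them are log2 ratios. Of 16 tested elongation, termination and recycling factors, 10 were called lower in WT at 27 h and 3 higher, where 22.5% of all genes were called lower and 18.0% higher, with HYP2 (eIF5A) at a log2 ratio of -1.80, TEF4 at -1.20 and RLI1, an iron-sulfur protein of ribosome recycling, at -1.16. After NAR1 repression 1 was called lower and 2 higher (11.2% and 13.3% of all genes), among them RLI1 at 0.95. Of 25 initiation factors 7 were called lower and 1 higher in WT at 27 h (22.5% and 18.0% of all genes). The share called lower was near that of all genes. Their medians were -0.15 there and -0.15 after NAR1 repression. Of 21 genes listed for RNA polymerase I and III, 2 were called lower and 2 higher in WT at 27 h (22.5% and 18.0% of all genes), with a median of 0.02. After NAR1 repression their median was 0.43, with 7 called higher and 0 lower (13.3% and 11.2% of all genes). RRN3, which is not itself a polymerase subunit, was the highest at 1.52. Of 24 chaperones and assembly partners of ribosomal proteins 5 were called lower and 4 higher in WT at 27 h, shares near those of all genes.

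Of 30 regulators, 5 were called lower and 9 higher in WT at 27 h (22.5% and 18.0% of all genes). IFH1, the coactivator of ribosomal protein genes, rose, with a log2 ratio of 1.17 at 27 h in WT and of 1.38 after NAR1 repression, and so did the repressor gene TOD6, at 1.20 and 1.04. REB1 and ABF1, general promoter-binding factors, were called lower in WT at -1.22 and -0.97. Stress response genes, which often move against ribosomal protein genes, had a median of 0.36 in WT at 27 h, with 8 called higher and 3 lower of 23 (18.0% and 22.5% of all genes). After NAR1 repression their median was -0.91, with 14 called lower (11.2% of all genes), while the ribosomal protein genes had medians below 0 in both conditions. Haploid and mating genes, the markers of another cell type, since the ATP1-111/ATP1-111 label writes a diploid, had 4 called higher and 1 lower of 10 in WT at 27 h (18.0% and 22.5% of all genes), with log2 ratios between -0.49 and 1.20 and a median of 0.22, and their part in the result was not tested.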

How the data were processed

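Transcripts were measured on 2-colour arrays in 6 conditions, each deposited by the authors as 1 ratio of treated over control per spot, averaged over arrays per the labels. Scanner, background correction, normalization, the kind of average and the genome build are not given in the sources used here. Of 6259 rows, the 28 control rows were left out. Spots of 13 genes with 2 spots were averaged as log2 ratios, and 6205 reading frames remained, 5705 of them named through the R64 reference table.

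Log2 ratios of 6151 complete genes were fitted with limma 3.58.1 in R 4.3.3, with hours in WT and a term each for ATP1-111 and NAR1, which leaves 2 residual degrees of freedom. All tests were two-sided. P-values were adjusted by Benjamini-Hochberg across the genes fitted, and calls needed an adjusted p under 0.05. The fit was also run on simulated data drawn from its own straight-line model. Such data cannot show how it fares on a course that levels off. Alternatives left out each WT time point, used log2 hours, centred or scaled the columns, kept incomplete genes, used ordinary least squares, other limits for pairs, or genes with no paralogue alone. A median with no test counts as moved where it shifted by more than the SD of a single spot. A count is said to have moved where it changed by more than 1.5-fold, or to or from 0.

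Members and gene lists were chosen with earlier results of these data known. Named genes are members called in any comparison, the 5 highest and lowest in 4 conditions, the widest and closest pairs, the stalk and ubiquitin fusion genes, and up to 4 genes of each other list with the largest values at 27 h in WT. Sequences of promoters and proteins were not analysed here, and the values of some members are not reported here.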

Additional observations from a re-analysis of the deposited data

Results flagged for a closer look

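The response to mtDNA loss at 27 h was called different between ATP1-111 and WT cells for several ribosomal protein genes, by limma's test of the difference itself (adjusted p between 0.0315 and 0.0495). The share of members called higher was 5.15%, against 3.09% of all genes. At limma's unadjusted p under 0.05, 73 of 136 members and 942 of 6151 genes were higher. No member was called without the 19 or 27 h column, with columns scaled to equal spread or by ordinary least squares. In these settings 0, 23, 5 and 0 of 6151 genes were called higher. In the main fit ATP1-111 minus the fitted WT level, on the log2 scale, was 1.03 for RPS10A, 1.00 for RPS4A, 0.94 for RPL26A, 0.89 for RPL21B, 0.80 for RPL28 and 0.73 for RPS23B. All of these were higher in ATP1-111 cells, as were the estimates of all 136 members tested (135 of 136 without the 19 h column, and 127 of 136 with columns centred and scaled to equal spread).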

How the results depend on the processing

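No paired analysis was possible because each condition is 1 deposited average with no replicate columns. With 4 WT points and no replicates, single calls depend on the settings, and the number of arrays limits precision. Median estimates over the members kept their direction in all 10 settings: -1.22 to -0.27 for the WT slope, -1.14 to -0.62 for the WT level at 27 h, 0.38 to 1.00 for ATP1-111 minus WT, -0.54 to -0.42 for NAR1 repression and 0.17 to 0.62 for NAR1 minus WT. Counts of called members that moved by the rule above are given next, smaller changes are left out, and the cause was not tested. Counts over all genes moved as well, and ordinary least squares called 0 of 6151 genes in every comparison. The 6 downward slopes became 0, 11, 0 and 0 without the 3, 11, 19 or 27 h column, 70 with log2 hours, and 0 with scaled columns or ordinary least squares, and centring gave 1 upward slope. The 118 lower WT levels became 51 without 19 h, 18 with scaling and 0 by least squares. The 7 higher in ATP1-111 than WT became 25, 2, 0 and 0 without the 3, 11, 19 or 27 h column, 3 with log2 hours, 4 with centring, and 0 with scaling or least squares. The 37 lower under NAR1 repression became 76 without 3 h, 10 without 19 h, 64 without 27 h, 69 with log2 hours, and 0 with scaling or least squares; the 1 higher became 2 without 3 h and 0 with scaling or least squares. The 10 higher in NAR1 than WT became 18 without 3 h, 1 without 19 h, 19 with log2 hours, 5 with centring, 1 with scaling and 0 by least squares, and 0 lower became 5 without 3 h and 1 with log2 hours. Large minus small among genes with no paralogue was 0.21 at 11 h, 0.19 at 19 h and 0.38 under NAR1 repression. Pairs apart by at least 0.3 numbered 5, 9, 14, 14, 11 and 20 in the 6 conditions, and by at least 1 they numbered 1, 0, 0, 1, 0 and 1. With scaling they numbered 5 at 3 h, 1 at 27 h, 14 in ATP1-111 and 6 under NAR1 repression. The fitted WT level of RPL22B was 0.099, and -0.0847 without 27 h.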
